A study of Homo sapiens with 4 samples.

Results

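Genes of the interleukin-1 family and the enzyme that cuts the precursors of IL18 and IL1B were followed here. The cells were the established colon cancer line HCT116, of human origin, after transfections meant to raise or to block the microRNA miR663a. The 10 genes were IL18, IL1A, IL1B, IL1RN, IL33, IL18BP, IL18R1, IL1R1, IL1RAP and CASP1, taken by gene symbol in the authors' deposited table of ratios. They are 10 of the 20307 gene symbols on its probe sets naming 1 gene and had 24 of its 42450 probe sets, a probe set being a group of short array probes for the same transcript. The set was chosen on the overexpression ratio of IL18, which was at least 2-fold lower, so that ratio is a description only, with no test.

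The study had 4 Affymetrix arrays and 1 array per group. The groups were cells transfected with empty pcDNA3.1, with pcDNA3.1-pri-miR663a (the plasmid with the primary transcript of the microRNA), with a single-stranded scrambled RNA, or with a single-stranded inhibitor of miR663a. All groups were of 1 cell line in the same medium with serum and antibiotics, and the time between transfection and harvest was not known here. The titles of both RNA arrays contradict their other labels, and inhibitor ratios follow the source, genotype and description labels and the header of the authors' table. No group had a replicate, so the spread between arrays of a group is unknown, and no p-value was computed.

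IL18 is a cytokine that epithelial cells, including those of the gut, store as an inactive precursor. Inflammasomes, protein platforms that sense infection and damage, activate the protease caspase-1, encoded by CASP1, which cuts the precursors of IL18 and IL1B. IL1A and IL1B signal through IL1R1 together with the shared accessory chain IL1RAP, and IL18 through IL18R1, in each case by way of the adaptor MYD88 to NF-kB. IL1RN and IL18BP are secreted inhibitors, the former occupying IL1R1 and the latter binding IL18.

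The microRNA that the plasmid encodes and the inhibitor targets is shown because the groups differ by it. It is hsa-miR-663a, at chr20:26208243-26208264 on the minus strand of GRCh38.p14, with the sequence from RefSeq and the seed (bases 2 to 8) in capitals.
hsa-miR-663a: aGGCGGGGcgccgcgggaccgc
It has 22 bases, of which 20 are G or C. Its own level on the arrays was not analysed here, and target sites in the transcripts of the members were not searched.

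Colon epithelial markers checked the label of the cells. For each marker gene, here and below, the probe set with the highest mean over the arrays was used, which favours values above the median. Of 11 such markers with levels, 10 lay above the array median on all 4 arrays, among them EPCAM, an epithelial adhesion molecule, at log2 values of 12.3 to 12.6, while LGALS4 lay below it. Of the 10 myeloid markers with levels, 3 lay above the median throughout (CD68, CSF1R and ITGAM). ITGAM was between 5.10 and 5.83. PTPRC, the pan-leukocyte CD45, lay below the median, between 2.04 and 2.34. Of 5 lymphoid markers, CD3E and CD79A lay above the median throughout. Medians of the 16381 probe sets with levels were 4.12 for vector, 4.19 for overexpression and 4.16 for each RNA array. Pairs of arrays correlated over these probe sets at 0.9945 to 0.9967.

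The value table used here ends at probe set 206934_at, with IDs ordered as text and not by number. All 12704 probe sets of the ratio table up to that ID had levels, and none of the 29746 after it did. Array medians and every statement on levels or likeness therefore cover that stretch only. It holds 6 members, each on 1 probe set, and the other 18 probe sets had ratios only. Of these 6, IL18, IL1B, IL1R1 and IL1RAP lay above the array median on every array, and IL18R1 and CASP1 below it on every array. Probe sets bind with different strength, so values are compared between arrays, and no gene's level is set against another's. For members as for the markers above, the median serves only to tell dim from brighter signals.

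IL18 had log2 levels of 9.42 with vector, 8.39 with miR663a overexpression, 9.01 with scrambled RNA and 9.47 with the inhibitor. The overexpression array was the lowest, and the vector and inhibitor arrays differed by 0.05. The other three arrays spanned 0.46, against 1.08 with the overexpression array included. The probe set, 206295_at, is the only one for IL18 in the authors' table. That table aligns its transcript to chromosome 11 from 112013975 to 112034797 on the minus strand, the genome build not being given. These are positions of the transcript and not of the probes.

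With overexpression the IL18 ratio was 0.490, a 2.04-fold lower level and a log2 ratio of -1.03. This value picked the set. After quantile normalization of the arrays the log2 ratio was -0.91, short of 2-fold. Among all probe sets of the authors' table, 26 of 42450 had an overexpression ratio as low or lower, or 0.0612%. IL18 was the only member at least 2-fold lower, beside 0.073% of all probe sets. The next lowest was IL1RN on probe set 212657_s_at, at 1.30-fold lower, followed by IL1R1 on 202948_at at 1.24-fold lower. In bulk RNA, a lower level in each cell cannot be told apart from a loss of transcript in some of the cells.

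The inhibitor comparison shares no array with the overexpression comparison and was not used to pick the set. IL18 was 1.37-fold higher with the inhibitor, a log2 ratio of 0.46. This lies short of the 1.5-fold used here to count a difference. A ratio as high or higher was found in 875 of 42450 probe sets, or 2.06%, and in 137 of 7204 probe sets above the median on all arrays, or 1.9%. With the array titles in place of the other labels, IL18 would be lower with the inhibitor by the same amount.

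The scrambled RNA array was also below the vector array for IL18, by a log2 difference of -0.41. The inhibitor array therefore stood above its own control and close to the vector array. The mean of both RNA arrays was 9.24 against 8.90 for both plasmid arrays, a difference of 0.34. A difference between plasmid and RNA pairs at least this large was found in 7.97% of all probe sets. The plasmid mean includes the overexpression array, whose low IL18 value picked the set, so nothing is read from this share.

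**Figure D1:**
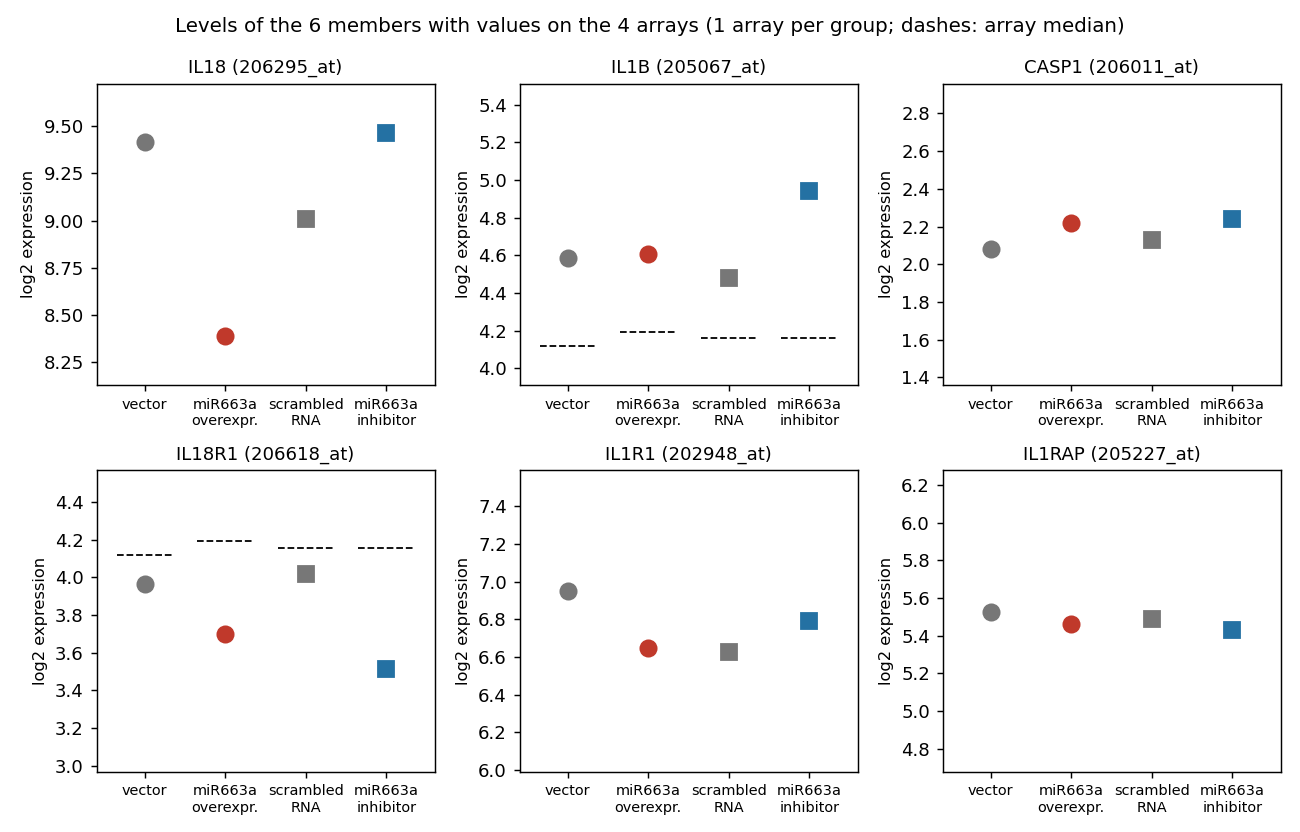
Log2 expression (vertical axes, all of the same span) of the 6 members with levels, 1 point per array, with circles for plasmid and squares for RNA transfections, grey for controls, red for overexpression and blue for the inhibitor. Dashes mark the array median where it falls inside a panel. IL18 is lowest with overexpression at 8.39, while IL1RAP stays within 0.10 over the 4 arrays.

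Of the other ligands, IL1B had log2 levels of 4.58 with vector, 4.60 with overexpression, 4.48 with scrambled RNA and 4.94 with the inhibitor. Both plasmid arrays and the scrambled RNA array lay close together, and the inhibitor array was the highest. The inhibitor ratio was 1.38 on this probe set and 1.14 on the second, 39402_at. The authors' table aligns the transcripts of both to nearly the same stretch of chromosome 2. With the offset of 64 on the linear scale the log2 ratio of the first moved from 0.46 to 0.13. The overexpression ratios of the pair were 1.01 and 1.02, and the first turned to a log2 ratio of -0.05 once the arrays were centred on their medians.

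IL1A, an interleukin-1 that is active without cleavage by caspase-1, was 1.21-fold and 1.38-fold higher with overexpression on its 2 probe sets. Its inhibitor ratios were 0.895 and 1.01. IL33, a nuclear cytokine released from damaged cells, was 1.22-fold lower with overexpression and had an inhibitor ratio of 0.950 on its only probe set. No levels of IL1A or IL33 were used here, so it is not known how bright these probe sets were.

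CASP1 had log2 levels of 2.08 with vector, 2.22 with overexpression, 2.13 with scrambled RNA and 2.24 with the inhibitor. All lay far below the array medians, at percentiles 5.07, 6.89, 5.27 and 9.69 of their arrays in the same order. The range over arrays was 0.16, but at so dim a signal a narrow range does not tell whether CASP1 changed. Its 5 probe sets had overexpression ratios from 0.902 to 1.10, 3 of them below 1. Their inhibitor ratios ran from 0.913 to 1.18, with 4 above 1. A further probe set that the authors' table assigns to both CASP1 and its neighbour CARD16, an inhibitor of caspase-1, was left out of all counts. Its ratios were 0.938 with overexpression and 0.806 with the inhibitor.

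The secreted inhibitors gave mixed readings. IL1RN was the only member with a probe set at least 1.5-fold higher in either comparison, 212659_s_at, with an overexpression ratio of 1.51. Another IL1RN probe set, 212657_s_at, had a ratio of 0.766. The authors' table gives both the same transcript alignment, chromosome 2 from 113885169 to 113891593, which does not place the probes themselves. These probe sets leaned in opposite directions for the same gene. The remaining 3 IL1RN probe sets had overexpression ratios of 1.16, 1.20 and 0.865. The last of these, 216245_at, has a transcript alignment on the minus strand, whereas those of the other IL1RN probe sets are on the plus strand. With the inhibitor, 4 of 5 IL1RN probe sets lay below 1, from 0.860 upward, and 216245_at was at 1.07.

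IL18BP had 3 probe sets, all slightly above 1 with overexpression, at 1.06, 1.07 and 1.13. Their inhibitor ratios were 1.18, 0.863 and 1.37 in the same order, so that they spread more widely than with overexpression and on both sides of 1.

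Among the receptors, IL18R1 had log2 levels of 3.96 with vector, 3.70 with overexpression, 4.02 with scrambled RNA and 3.52 with the inhibitor. It was lower on the treated array of both pairs, 1.20-fold with overexpression and 1.42-fold with the inhibitor. The signal was below the array median throughout, and with an offset of 64 on the linear scale, which shrinks differences of dim probe sets, the inhibitor log2 ratio moved from -0.50 to -0.09.

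IL1R1 had log2 levels of 6.95 with vector, 6.65 with overexpression, 6.63 with scrambled RNA and 6.79 with the inhibitor. Its vector array was the highest, and the overexpression and scrambled RNA arrays were nearly equal. It was 1.24-fold and 1.19-fold lower with overexpression on its 2 probe sets, and 1.12-fold and 1.03-fold higher with the inhibitor. Both probe sets thus leaned the same way as IL18 in both comparisons, with smaller differences. These signs were found in 28% of all probe sets. The scrambled RNA array was below the vector array by a log2 difference of -0.32, larger than the inhibitor difference of 0.16.

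IL1RAP had log2 levels of 5.53 with vector, 5.46 with overexpression, 5.49 with scrambled RNA and 5.43 with the inhibitor. It had the narrowest range of the 6 members with levels, 0.10 over the arrays. Its second probe set, 210233_at, had ratios of 1.04 with overexpression and 0.817 with the inhibitor.

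**Figure D2:**
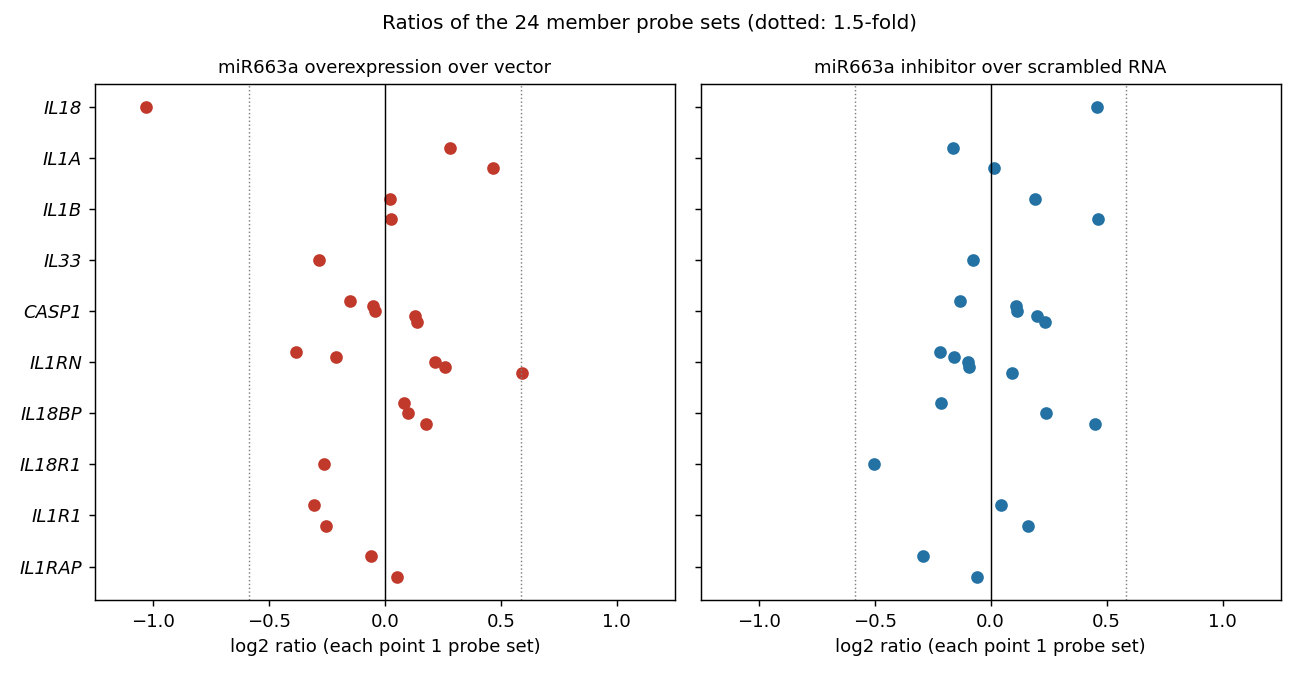
Log2 ratios (horizontal axes) of the 24 member probe sets by gene, 1 point per probe set, for overexpression over vector on the left and inhibitor over scrambled RNA on the right, with dotted lines at 1.5-fold. IL18 at -1.03 and 1 of the 5 IL1RN probe sets at 0.59 are the only points beyond a line, both with overexpression.

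Over the whole set, 1 of 24 probe sets was at least 1.5-fold higher with overexpression, where 1.77% of all probe sets were, and 1 was at least 1.5-fold lower, where 1.76% were. These are the IL1RN and IL18 probe sets already described, and nothing is read from the second count, which the choice of the set fixes. With the inhibitor 0 of 24 were at least 1.5-fold higher, against 0.737% of all probe sets, and 0 were at least 1.5-fold lower, against 0.714%. The members' median log2 ratio was 0.02 with overexpression and 0.03 with the inhibitor, beside -0.02 for all probe sets in each comparison.

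The design text of the study asks for genes lower with overexpression and higher with the inhibitor. By sign alone, 6 of 24 member probe sets had this pattern, or 25%, beside 28% of all probe sets. They belong to 4 genes: IL18, both probe sets of IL1R1, 2 of CASP1 and the IL1RN probe set 216245_at. The opposite pattern was also found in 6 of 24, beside 29.8% of all probe sets. The share with either pattern was near the background. With the inhibitor sign turned, as the array titles would have it, the pattern sought was found in 5 of 24, beside 24.2% of all probe sets. The 5 were other probe sets: IL18R1, IL33, 1 of CASP1, 1 of IL1RAP and the IL1RN probe set 212657_s_at. IL18 and IL1R1 then dropped out. This alternative was added after the data had been seen.

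A difference between both plasmid and both RNA arrays was available for every member, since the score column of the authors' table holds the squared spread of the 4 log2 values around their mean, summed. For probe sets without levels this gives the size of the difference and not its direction. The members ranged from 0.01 for CASP1 on 209970_x_at to 0.34 for IL18, with a median of 0.10 beside 0.11 for all probe sets. The value of IL18 includes the overexpression array on which the set was picked, so nothing is read from its place. The largest after IL18 were 0.27 and 0.25 for IL1A, and 0.27 and 0.25 for 2 IL1RN probe sets.

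The 5 probe sets most like IL18 over the 4 arrays were taken from 7074 probe sets of single genes above the array median on all arrays. Likeness was the root mean square difference in log2 expression after each probe set was centred on its own mean, which had a median of 0.43 over those compared. They were CEP57, a centrosomal protein, at 0.06, PGRMC2, a haem-binding membrane protein, at 0.07, BCLAF1, a nuclear RNA-associated protein, at 0.07, CUL5, a ubiquitin ligase scaffold, at 0.09, and PSPH, the phosphatase of serine synthesis, at 0.09. All 5 were lowest on the overexpression array, as the choice by likeness fixes.

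CEP57 had log2 levels of 9.04 with vector, 8.05 with overexpression, 8.60 with scrambled RNA and 8.97 with the inhibitor, close in shape to IL18. Each of the 5 genes had other probe sets in the authors' table, unlike IL18. Their median overexpression log2 ratios were -0.28 for CEP57, -0.16 for PGRMC2, -0.24 for BCLAF1, -0.20 for CUL5 and -0.55 for PSPH. The probe sets chosen for likeness had -0.99, -0.83, -0.94, -0.80 and -0.83 in the same order. A smaller value on the other probe sets follows from choosing these for their likeness to IL18, so nothing is read from the gap.

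**Figure D3:**
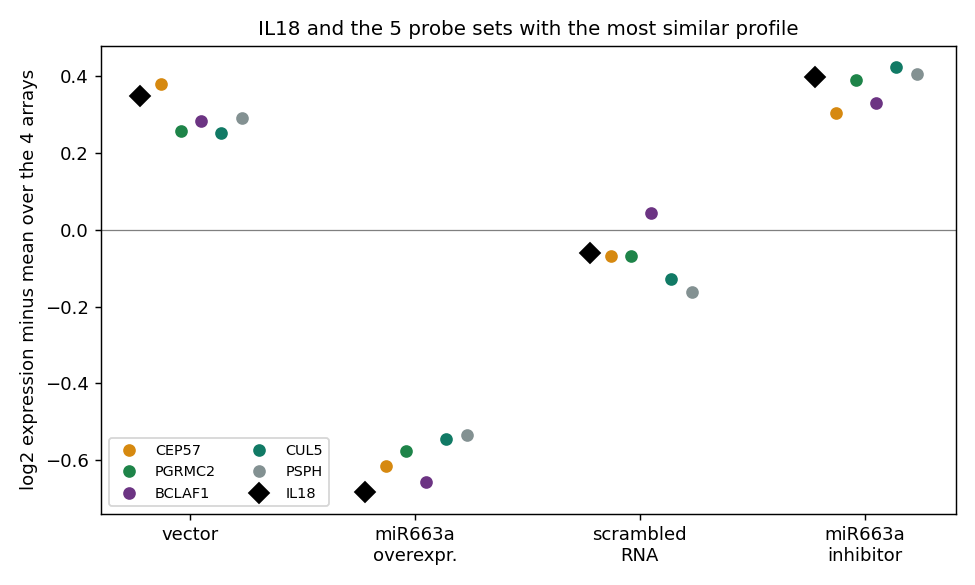
Log2 expression minus the mean over the 4 arrays (vertical axis) for IL18 (black diamonds) and the 5 probe sets nearest to it (coloured circles), 1 point per array and gene. All are lowest on the overexpression array, and IL18 is at 8.39 there before centring.

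Genes around the members in the pathway were taken in 5 lists. The other ligands of the family, the IL36 cytokines and their antagonist with IL37 and IL1F10, had 6 genes and 8 probe sets. None was past 1.5-fold in either comparison, beside 1.77% higher and 1.76% lower among all probe sets with overexpression and 0.737% and 0.714% with the inhibitor. Their median log2 ratio was -0.04 with overexpression and -0.004 with the inhibitor. IL37, an anti-inflammatory member, was 1.42-fold higher with the inhibitor on 1 probe set, with its second at a log2 ratio of -0.20. IL36B, an epithelial agonist, was 1.30-fold higher with overexpression on 1 probe set and at -0.08 on its second, and IL36G, a related agonist, was 1.24-fold lower on its only one.

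The other receptors had 7 genes and 12 probe sets, with medians of 0.004 and -0.12. The count past 1.5-fold was 0 in both comparisons, beside the same background of 1.77% and 1.76% with overexpression and 0.737% and 0.714% with the inhibitor. IL1R2, a decoy receptor for interleukin-1, was 1.48-fold lower with the inhibitor on the probe set with levels. Those levels were 3.92 with vector, 3.87 with overexpression, 3.96 with scrambled RNA and 3.39 with the inhibitor, all below the array medians, and the second IL1R2 probe set leaned the opposite way at a log2 ratio of 0.25. IL1RL1, the receptor of IL33, was 1.45-fold lower with overexpression on 1 probe set, while its other 3 had a median log2 ratio of 0.25. IL18RAP, the accessory chain of the IL18 receptor, was 1.19-fold higher with overexpression.

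The adaptors and kinases below the receptors had 17 genes and 41 probe sets. With overexpression 1 was at least 1.5-fold higher and 1 lower, each 2.44% of the list, beside 1.77% and 1.76% of all probe sets. PELI2, a ubiquitin ligase that acts with IRAK kinases, was 1.58-fold lower on its only probe set. TAB3, a partner of the kinase TAK1, was 1.65-fold higher on a dim probe set (3.35 with vector, 4.07 with overexpression), and its other 3 had a median log2 ratio of -0.13. TAB2, its close relative, was 1.47-fold lower, with its second probe set at -0.38. With the inhibitor 0 of 41 passed 1.5-fold, beside 0.737% higher and 0.714% lower among all probe sets. The list medians were -0.03 and -0.05.

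Inflammasome genes had 17 of 18 listed genes and 30 probe sets. None was past 1.5-fold, where 1.77% and 1.76% of all probe sets were with overexpression and 0.737% and 0.714% with the inhibitor, so the count is near the background. Their medians were 0.07 with overexpression and -0.05 with the inhibitor. NEK7, a kinase that binds the sensor NLRP3, was 1.32-fold lower with overexpression and 1.48-fold higher with the inhibitor on its only probe set. These are the signs of IL18, found in 28% of all probe sets. NLRP3 itself was 1.36-fold lower with the inhibitor on 1 probe set, and its other 2 had a median log2 ratio of -0.21. SERPINB1, an inhibitor of neutrophil proteases and of caspase-1 activation, was 1.45-fold lower with overexpression on 1 probe set, and its other 3 had a median of -0.27.

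The NF-kB targets of interleukin-1 had 17 genes and 26 probe sets. With overexpression 1 was at least 1.5-fold higher, 3.85% of the list beside 1.77% of all probe sets, and 0 were lower. That was ICAM1, a leukocyte adhesion molecule, at 1.64-fold on a probe set that was below the array median with vector (3.98) and above it with overexpression (4.70). Its other 2 had a median log2 ratio of -0.24. With the inhibitor 0 of 26 passed 1.5-fold, beside 0.737% higher and 0.714% lower among all probe sets. IL6, a cytokine, was 1.41-fold lower at dim levels of 3.42 with scrambled RNA and 2.92 with the inhibitor. The list medians were 0.04 and -0.01.

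CXCL8, the chemokine interleukin-8, differed between transfection types more than any member did. On the probe set with levels its log2 values were 10.1 with vector, 10.3 with overexpression, 7.31 with scrambled RNA and 7.70 with the inhibitor. Both plasmid arrays were high and both RNA arrays low. For IL18 the pairs overlapped. The mean of its RNA arrays was 0.34 above that of its plasmid arrays, which include the low overexpression array. Between the controls alone, IL18 was lower with scrambled RNA than with vector, by a log2 difference of -0.41, as CXCL8 was. Other NF-kB targets with levels also had both plasmid arrays above both RNA arrays. CCL20 was at 5.60 with vector, 5.77 with overexpression, 3.93 with scrambled RNA and 3.89 with the inhibitor. CXCL1 was at 6.66, 6.60, 5.58 and 5.68 in the same order. The same held for RELB, NFKBIA, TNFAIP3 on both probe sets and TNFAIP2 on its brighter one. The arrays overlapped for CXCL2, ICAM1, IL6 and the dimmer TNFAIP2 probe set. How many of all probe sets have both plasmid arrays above both RNA arrays was not computed, so nothing is read about the targets as a group. The cause was not tested.

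**Figure D4:**
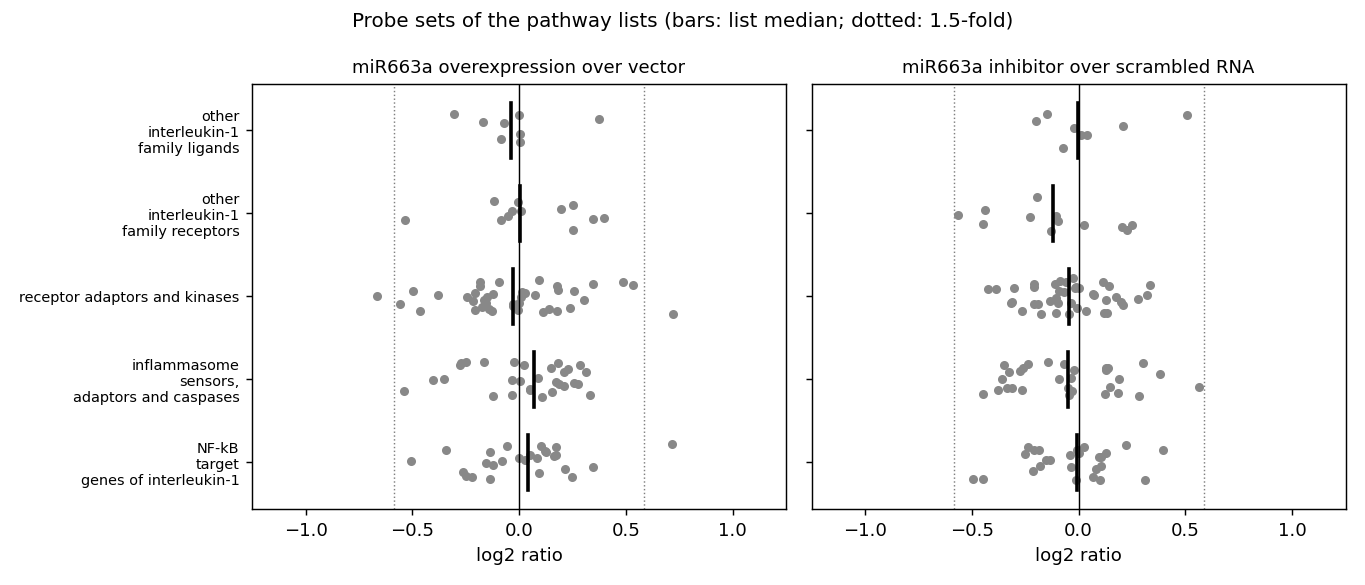
Log2 ratios (horizontal axes) of the probe sets in the 5 pathway lists, 1 grey point per probe set, with black bars for list medians and dotted lines at 1.5-fold. With overexpression 3 points lie beyond a line (PELI2, TAB3 and ICAM1), and with the inhibitor none does.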

How the data were processed

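Total RNA of 4 HCT116 transfections was labelled with biotin and hybridised to Affymetrix arrays, per the labels' protocols. The deposited value table holds log2 expression per probe set, and MAS5 is named in the submitters' processing notes with no version. For background correction, normalization between arrays and genome build, nothing is given in the sources used here. A second deposited table holds the authors' linear ratio for each comparison, per the file headers, and a score column that matched the summed squared spread of the 4 log2 values around their mean to within 0.000107 over the 12704 probe sets in both tables.

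Members and lists were taken by the file's gene symbols, and the 961 probe sets naming several genes were left out of members and lists. Both were chosen with earlier results of these data known. Differences were counted past 1.5-fold beside the share over all probe sets. Named genes were all members, up to 4 genes of each list per comparison by size of ratio, those past 1.5-fold and the 5 nearest to IL18; not every one is printed. With 1 array per group there is no test, and the number of arrays limits the precision. Alternatives were centring, quantile normalization, an offset of 64 on the linear scale, a 2-fold threshold, a filter on dim probe sets, gene means and the turned sign. Counting was tested on simulated data with large made changes and little noise, which checks the code and not the counts reported here. Python 3.11.15, numpy 2.4.6, pandas 2.3.3 and matplotlib 3.10.9 were used.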

Additional observations from a re-analysis of the deposited data

How the results depend on the processing

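Each group had 1 array, so no array could be left out. No paired analysis was possible because no group had a replicate. The IL18 log2 ratio with overexpression was -1.10 after centring, -0.91 after quantile normalization and -0.91 with the offset of 64, so it stayed past 1.5-fold under these alternatives and passed 2-fold only as deposited and after centring. With the inhibitor it was 0.46, 0.44 and 0.41 in the same order, and -0.46 with the sign of the array titles. The 1 member probe set counted as higher with overexpression, of IL1RN, became 0 at 2-fold and 0 with the filter on dim probe sets, which leaves out probe sets without levels. The 2 adaptor and kinase probe sets past 1.5-fold with overexpression became 0 at 2-fold, 0 with the filter and 1 with gene means, and the 1 NF-kB target became 0 under each of these. The cause was not tested, apart from the stricter threshold and the probe sets that the filter leaves out. The remaining 73 values computed for IL18, the counts and the list medians kept their side of the threshold or lay within the limits for an unchanged value. Those limits were wide beside the small list medians. With the filter the inflammasome median with the inhibitor went from -0.05 to -0.27 and still counted as unchanged. So did the NF-kB target median with overexpression, from 0.04 to 0.17. With the offset of 64 the inhibitor log2 ratios of the IL1B probe set with levels and of the dim IL18R1 probe set moved to 0.13 and -0.09. Centring turned the sign of 1 of 23 other member ratios with overexpression, that of IL1B on 205067_at, and 0 of 23 with the inhibitor. Probe sets with levels were centred on the array medians, and those without on the median ratio of all probe sets. With overexpression these centrings shift ratios in opposite directions, down for the former and up for the latter. Among the first 2 probe sets of 10736 genes, log2 ratios of the same gene differed with a standard deviation of 0.34 for overexpression and 0.30 for the inhibitor, and most members' log2 ratios are smaller than that.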
